A study of Mus musculus with 12 samples.

Results

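The 33 genes described here make or regulate cholesterol and fatty acids, and they were chosen by name from the gene symbols of the array annotation, with no threshold on their values. Earlier results of these data were known when they were chosen. All 33 were found among the 18820 genes tested. They comprised 17 enzymes of sterol synthesis, 9 enzymes of fatty acid synthesis, elongation and desaturation, 5 regulators of the SREBP pathway, the sterol carrier Stard4 and the isoprenoid enzyme Ggps1. Gene expression was measured on 12 Affymetrix Mouse Gene 1.1 ST arrays, with RNA from lymphoma B cells of λ-MYC;B1-8f mice (C57BL/6J x BALB/c), which carry a MYC transgene that acts in B cells and a conditional B-cell receptor (BCR) heavy chain allele. Every culture was exposed to the cell-permeable recombinase TAT-Cre, so that cells that had lost the BCR grew beside cells that had kept it. Mixed cultures of 3 independent lymphomas (2564, 2646 and 2676) grew for 4 days, either untreated or with CHIR99021, an inhibitor of the kinase GSK3, and the populations were then separated by cell sorting. The 4 groups were BCR-positive untreated, BCR-negative untreated, BCR-positive with CHIR99021 and BCR-negative with CHIR99021, with 1 array per lymphoma in each (n = 3). BCR-positive and BCR-negative cells of one lymphoma and treatment thus came from 1 mixed culture, each lymphoma is a single tumour, and both populations had met the recombinase.

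Cholesterol is built from acetyl-CoA through mevalonate, farnesyl pyrophosphate, squalene and lanosterol, and farnesyl pyrophosphate also feeds the isoprenoids that anchor small GTPases to membranes. Fatty acids are built from the same acetyl-CoA and are then lengthened and desaturated. The transcription factors SREBP1 and SREBP2, encoded by Srebf1 and Srebf2, activate most genes of both pathways: SCAP escorts them out of the endoplasmic reticulum when sterols are scarce, and the INSIG proteins hold them back when sterols are plentiful. Growing B cells need both products for new membrane.

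SREBP acts at promoters together with the CCAAT-binding factor NF-Y and with Sp1, so the stretches upstream of the start site that hold such motifs are shown for called members with a CCAAT match there and for Hmgcs1, the single member with a match to the sterol response element. RefSeq promoters (build GRCm38.p6, 250 bases before to 50 bases after the start) were found for 26 of the 33 members. Capitals mark CCAAT or its reverse complement ATTGG, the sterol response element TCACNCCAC, and CACGTG, the E-box that MYC binds. The stretches are chr13:119690108-119690316 (+ strand), chr5:114444090-114444265 (+), chr13:8885555-8885602 (+), chr5:4104716-4104732 (- strand) and chr5:28071190-28071322 (+), each written 5′ to 3′ on the gene's strand.
Hmgcs1: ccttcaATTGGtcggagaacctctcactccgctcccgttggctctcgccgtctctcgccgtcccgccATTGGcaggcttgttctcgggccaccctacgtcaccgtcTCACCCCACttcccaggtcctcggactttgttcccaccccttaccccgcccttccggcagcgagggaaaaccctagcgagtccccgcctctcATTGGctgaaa
Mvk: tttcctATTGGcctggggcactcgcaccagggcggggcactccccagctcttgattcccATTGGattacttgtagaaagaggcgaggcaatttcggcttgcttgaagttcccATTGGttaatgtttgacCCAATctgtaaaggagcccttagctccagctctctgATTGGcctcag
Idi1: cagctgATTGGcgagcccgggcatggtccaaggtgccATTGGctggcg
Cyp51: ccgccaCCAATctggtc
Insig1: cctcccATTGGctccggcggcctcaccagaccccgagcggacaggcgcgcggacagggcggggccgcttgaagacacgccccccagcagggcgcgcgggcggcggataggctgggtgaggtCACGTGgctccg

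Searched on both strands, CCAAT was present in the promoters of 22 of these 26 members (84.6%), against 41.9% of the 14749 tested genes with a RefSeq promoter. GGGCGG, the Sp1 motif, was present in 21 (80.8%) against 53.4%. CACGTG was found in 5 members (19.2%; Hsd17b7, Sc5d, Dhcr7, Scap and Insig1) against 9.57% of tested genes. TCACNCCAC was found in Hmgcs1 only (3.85% against 1.42%), and TCACNTGA, an E-box that SREBP reads, in Insig2 only (3.85% against 4.64%). These matches describe letters in a fixed window and are not binding sites shown by measurement. Mvk, with 5 CCAAT matches in its stretch, and Cyp51, with 1, both passed the test as lower after BCR loss, averaged over the cultures. Scd1 and Acly passed it too, but Scd1 had no promoter here and the CCAAT of Acly lies after the start. Insig1, which holds a CCAAT and a CACGTG, had a positive averaged value, 0.12 ± 0.0533 (limma adjusted p = 0.22). Of members without CCAAT, Fads2 (-0.31), Acaca (-0.22) and Elovl6 (-0.16) had negative averaged values and Scap a positive one (0.08). A link between matches and calls was not tested.

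Markers of the labelled cell type were checked first. Transcripts of the B-cell genes Cd79a, Cd79b and Pax5 averaged 11.28, 11.42 and 10.20 on the deposited log2 scale, and 7 of 8 measured B-cell markers lay above the 30th percentile of gene means (4.12), Ms4a1 being the exception. The T-cell list had medians of 3.82 to 3.94 on every array. Cd3d, Cd3g and Cd4 lay below that percentile, and Cd3e and Cd8a above it (5.08 and 4.39). Also above it were Klrb1c (4.41), 1 of 4 NK-cell markers, and all 3 measured erythroid markers. Of 6 stromal and fat cell markers 4 lay above it, Col1a1 highest (5.45). Among myeloid markers Cd14, Lyz2 and Adgre1 lay below it, whereas Mpo, Csf1r and Itgam averaged 4.58, 6.27 and 6.32. Single arrays ran from 4.52 to 8.53 for Csf1r and from 4.68 to 8.03 for Itgam. The median of the 6 myeloid markers ran from 4.06 to 4.39 and from 4.11 to 4.23 in untreated BCR-positive and BCR-negative cells, and from 3.98 to 4.49 and from 4.28 to 4.52 with CHIR99021; the part of such cells in the results was not tested. Ighv1-72, the variable gene segment related to the B1-8 heavy chain, was lower in BCR-negative cells of every lymphoma, by -2.11 ± 0.331 (SE) in untreated cultures and by -2.95 ± 0.331 with CHIR99021. The median over all probe sets ran from 4.71 to 4.92, and in each lymphoma the untreated BCR-negative array had a higher median than its BCR-positive partner. Lymphoma accounted for 73.0% of the summed variance of the 33 members, group for 18.1% and the residual for 8.96%, against 76.7%, 14.3% and 9.08% over all genes. All differences below were therefore taken within lymphomas, in a limma model with group and lymphoma as terms, and a gene was called where its Benjamini-Hochberg adjusted p over the 18820 genes was below 0.05. Fewer cells of a state and less RNA per cell cannot be told apart in such sorted populations.

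The first question was what loss of the BCR did to these genes in untreated cultures. Most enzymes of both pathways had lower transcript levels in BCR-negative cells: the difference was negative for all 17 sterol enzymes and all 9 fatty acid enzymes, whereas 4 of the 5 regulators and Ggps1 had positive differences. Negative differences were found for 28 of the 33 members, against 51% of all genes, and the median difference was -0.27, against -0.002 over all genes. Only Idi1 and Scd1 passed the test, both lower, among a background of 2.3% of genes called lower, and no member was called higher (background 1.91%; 2 at an unadjusted p below 0.05, against 8.36% of genes). Counting signs of any size, 21 members were lower in all 3 lymphomas (21.8% of all genes), and 17 had an unadjusted p below 0.05 in the negative direction (12.2%).

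**Figure D1:**
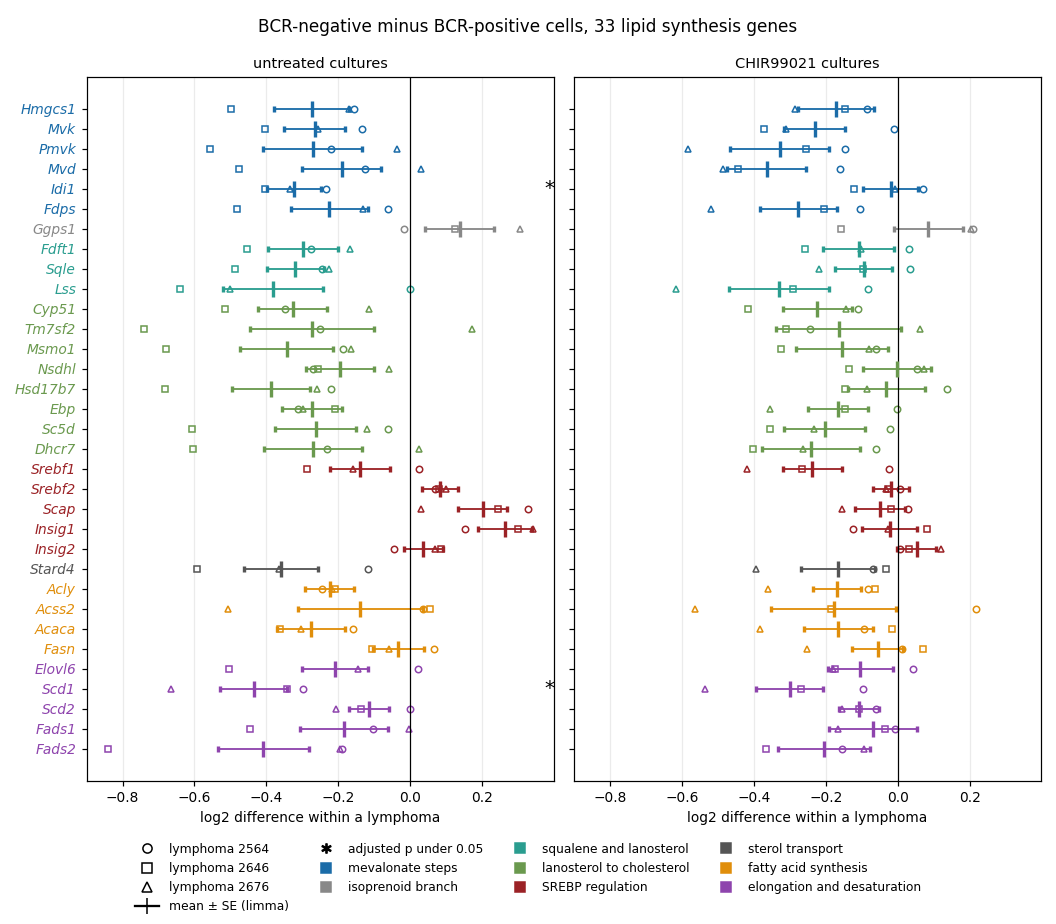
Difference in log2 expression between BCR-negative and BCR-positive cells (horizontal axis) for the 33 members in order of role, in untreated (left) and CHIR99021 (right) cultures. Open symbols are the 3 lymphomas, ticks with bars the mean ± SE from limma, and asterisks mark adjusted p under 0.05: Idi1 and Scd1 in untreated cultures, none with CHIR99021.

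Scd1, the stearoyl-CoA desaturase that makes monounsaturated fatty acids, stood at 11.14, 11.33 and 10.95 in untreated BCR-positive cells of lymphomas 2564, 2646 and 2676 and at 10.84, 10.99 and 10.28 in their BCR-negative partners. It fell by 0.44 ± 0.0925 (SE, n = 3) on the log2 scale, to 0.739 of the BCR-positive level (limma adjusted p = 0.0353). The groups overlapped between tumours, but the fall was present in each, smallest in 2564 (-0.30) and largest in 2676 (-0.66).

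Idi1, the isomerase that makes the activated isoprene unit dimethylallyl pyrophosphate, read 10.43, 10.26 and 10.08 in untreated BCR-positive cells and 10.20, 9.86 and 9.74 in BCR-negative cells. It fell by 0.32 ± 0.0758 (limma adjusted p = 0.0464), and its second probe set gave -0.34 ± 0.0864. Again the fall occurred within every lymphoma while the ranges overlapped across them.

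The other mevalonate enzymes had differences between -0.19 (Mvd, the decarboxylase) and -0.27 (Hmgcs1, which condenses the carbon units that become mevalonate). Past farnesyl pyrophosphate, Fdft1, Sqle and Lss, which make squalene, its epoxide and lanosterol, differed by -0.30, -0.32 and -0.38. Fdft1 and Sqle were lower in all 3 lymphomas, and the value of Lss came from 2646 (-0.64) and 2676 (-0.50), with 0.00 in 2564 after rounding. Sqle was not called (adjusted p = 0.0535). Of the 8 enzymes from lanosterol to cholesterol, Hsd17b7, a ketosteroid reductase, had the most negative value, -0.39 ± 0.107 (adjusted p = 0.0723), and Nsdhl, a sterol dehydrogenase, the least negative, -0.20. Tm7sf2, a sterol reductase and the dimmest member, had -0.74 in lymphoma 2646 and 0.17 in 2676, and Dhcr7, which makes cholesterol in the last step, had -0.60 and 0.02 there.

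Cyp51, the lanosterol demethylase, measured 8.99, 9.09 and 8.74 in untreated BCR-positive cells and 8.64, 8.58 and 8.62 in BCR-negative cells. Those 3 BCR-negative arrays were lower than each of the other arrays of the study, where the lowest Cyp51 value was 8.70 after rounding. The difference in untreated cultures was -0.33 ± 0.0958 (adjusted p = 0.0852).

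The regulators did not share this direction. Insig1, whose protein retains SCAP and whose transcription SREBP drives, read 10.10, 10.14 and 10.17 in untreated BCR-positive cells and 10.25, 10.44 and 10.51 in BCR-negative cells. The groups did not overlap, and the untreated BCR-negative arrays held the highest Insig1 values of all arrays. The difference, 0.26 ± 0.0754, had an adjusted p of 0.0803. Scap differed by 0.20 ± 0.0692 (adjusted p = 0.131), Srebf2 by 0.08 and Insig2 by 0.04, and Srebf1 by -0.14 ± 0.0832.

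Stard4, which carries cholesterol between membranes, differed by -0.36 ± 0.103 (adjusted p = 0.0803), from 8.27, 8.79 and 7.81 to 8.15, 8.20 and 7.44. Ggps1, which makes geranylgeranyl pyrophosphate outside the sterol branch, differed by 0.14 ± 0.0963 and was 7.72, 7.95 and 7.71 against 7.71, 8.07 and 8.02. Among fatty acid genes, the delta-6 desaturase Fads2 had -0.41 ± 0.127, most of it from lymphoma 2646 (-0.84 against -0.19 in both others). Acaca, the acetyl-CoA carboxylase, differed by -0.28 ± 0.095, and Fasn, the synthase itself, by -0.03 ± 0.0712. The elongase Elovl6 differed by -0.21 ± 0.0915, the second desaturase Scd2 by -0.12 ± 0.0559, and Acss2, which activates acetate, by -0.14 ± 0.174.

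The size of the difference varied between the tumours. Each tumour gave 1 pair of arrays here, so tumour, culture and array cannot be told apart. The median over the 17 sterol enzymes was -0.22 in lymphoma 2564, -0.50 in 2646 and -0.16 in 2676. Without lymphoma 2564, 1 member was called lower, and without 2646 or without 2676 none was. Leaving out single arrays gave 0 to 6 members called lower, and only without the untreated BCR-negative array of 2564 was the number again 2. Over all genes, leaving out a lymphoma or an array gave 0 to 635 called lower, against 432 with all arrays. With each array's median subtracted, 8 members were called lower, and the share of all genes called lower rose to 5.38%, that called higher being 1.53%, while the median of all genes shifted to -0.06.

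In CHIR99021 cultures the median over the members was -0.17, although Mvd, Pmvk, Fdps, Srebf1, Acss2 and Fasn had more negative values there than untreated. Scap (-0.05), Srebf2 (-0.02) and Insig1 (-0.02) were negative there and positive untreated. No member was called by limma in either direction (background 0.00531% lower and 0.0106% higher), and 9 members had an unadjusted p below 0.05, all lower, against 3.78% of genes lower and 4.87% higher at that p. The difference was negative for 31 members (47.7% of genes), and 19 were lower in all 3 lymphomas (13.9% of genes). Mvd (-0.36 ± 0.109) and Mvk, the mevalonate kinase (-0.23 ± 0.0846), had adjusted p of 0.48 and 0.53. Scd1 differed by -0.30 ± 0.0925 (adjusted p = 0.489), from 11.23, 11.52 and 10.99 to 11.14, 11.25 and 10.45. Idi1, at 10.49, 10.32 and 9.87 against 10.56, 10.19 and 9.87, differed by -0.02 with a 95% interval of -0.19 to 0.15. In lymphoma 2564 the median over the members was -0.03, in 2646 -0.16 and in 2676 -0.22.

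Averaged over both cultures, 4 members were called lower after BCR loss (background 3.46%) and none higher (3.17%; 1 at an unadjusted p below 0.05, against 10.1% of genes). These were Scd1, Mvk, Cyp51 and Acly, 1 enzyme each of fatty acid desaturation, the mevalonate steps, the lanosterol steps and acetyl-CoA supply. All 17 sterol and all 9 fatty acid enzymes had negative values, among 28 members that did (49.3% of genes). A total of 23 members were lower in all 3 lymphomas (21.2% of genes), and 23 had an unadjusted p below 0.05 in that direction (12.4%). The median was -0.21.

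Scd1 fell by 0.37 ± 0.0654 (limma adjusted p = 0.0176), with -0.20, -0.31 and -0.60 in lymphomas 2564, 2646 and 2676. Cyp51 fell by 0.27 ± 0.0677 (adjusted p = 0.0437). Mvk read 7.51, 7.94 and 7.51 in untreated BCR-positive and 7.38, 7.53 and 7.25 in untreated BCR-negative cells, and 7.57, 7.90 and 7.45 against 7.56, 7.53 and 7.14 with CHIR99021. It fell by 0.25 ± 0.0598 (adjusted p = 0.0408), and in lymphoma 2564 the difference was -0.07 only.

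Acly, the ATP citrate lyase that supplies cytosolic acetyl-CoA to both pathways, fell by 0.20 ± 0.0473 (adjusted p = 0.0408). Its values were 10.38, 10.09 and 10.11 against 10.13, 9.88 and 9.90 untreated, and 10.50, 10.21 and 10.26 against 10.42, 10.15 and 9.90 with the inhibitor. Each BCR-negative array lay below its BCR-positive partner in all 6 pairs. Sqle (-0.21, adjusted p = 0.0566), Ebp (-0.22, 0.0559), Lss (-0.36, 0.06), Stard4 (-0.26, 0.0614) and Mvd (-0.28, 0.0618) had the next smallest adjusted p.

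Srebf1 stood at 7.75, 8.14 and 7.62 against 7.78, 7.86 and 7.47 untreated and at 7.76, 8.21 and 7.87 against 7.74, 7.94 and 7.45 with CHIR99021. Its averaged difference was -0.19 ± 0.0589 (adjusted p = 0.0854), near 0 in 2564 and -0.28 and -0.29 in the other tumours. Srebf2 differed by 0.03 ± 0.0356, with a 95% interval of -0.05 to 0.11. Without lymphoma 2646, or without 2676, no member was called in this comparison, and without 2564 there were 5 calls. Leaving out single arrays gave 0 to 8 calls, with none when either CHIR99021 array of 2646 or the BCR-positive CHIR99021 array of 2676 was absent. Over all genes, leaving out a lymphoma or an array gave 0 to 1018 called lower, against 651 with all arrays. With array medians subtracted 20 members were called lower, among 8.47% of all genes lower and 2.29% higher, with a median of all genes of -0.05.

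**Figure D2:**
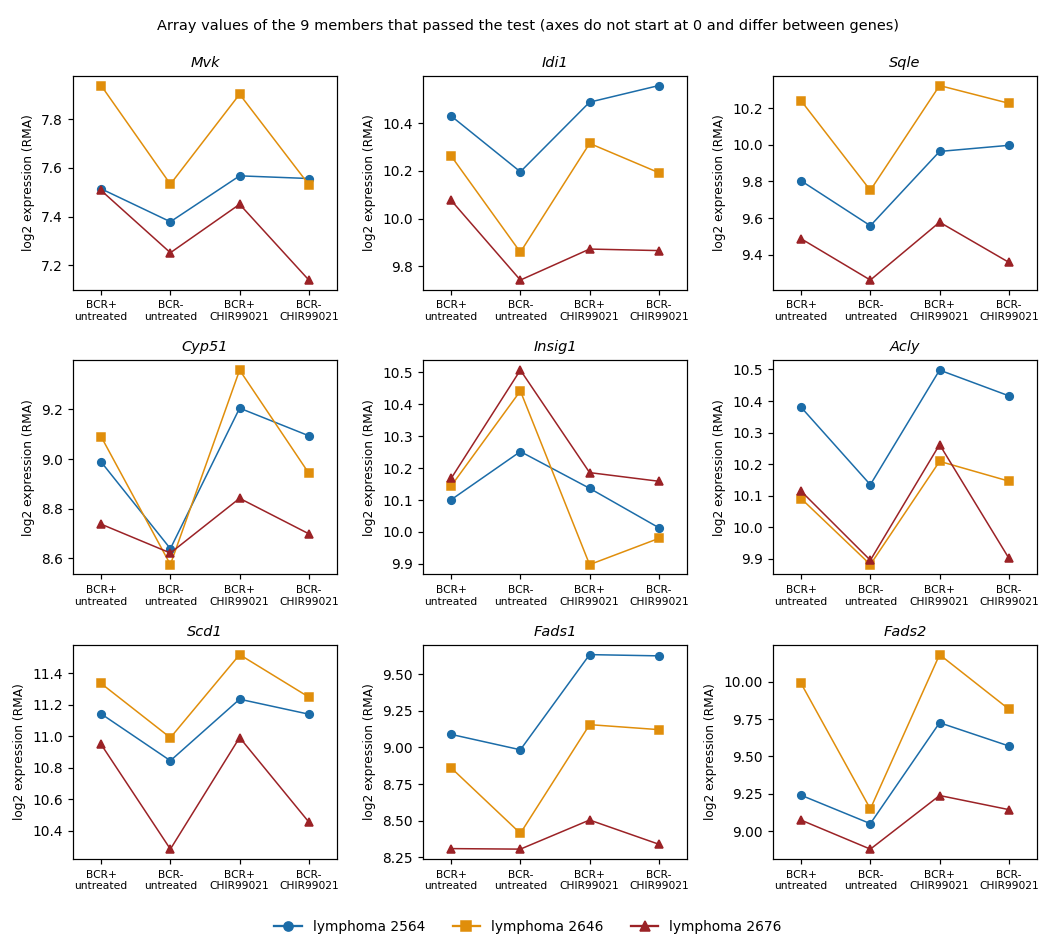
RMA log2 expression (vertical axis, not starting at 0 and differing between panels) of the 9 members called in any comparison, across the 4 groups, with 1 line per lymphoma. The untreated BCR-negative arrays are the lowest of their lymphoma for Idi1, Sqle, Cyp51, Acly, Scd1, Fads1 and Fads2, and the highest of all for Insig1. For Mvk this held in lymphoma 2564 only.

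The second question was the response to CHIR99021. In BCR-positive cells no member was called by limma (background 0.00531% higher and 0.0691% lower), and 3 had an unadjusted p below 0.05, all higher (4.69% of genes higher and 5.36% lower at that p). The median difference was 0.11, 24 members were positive (51.2% of genes), and 18 were higher in all 3 lymphomas (18.6%). All 9 fatty acid enzymes had positive values, 8 of them in every lymphoma, with Fads1 at 0.34 ± 0.122 (adjusted p = 0.36) and Acss2 at 0.32 ± 0.174. The sterol enzymes were divided, 10 positive and 7 negative, from -0.20 (Hsd17b7) to 0.34 (Pmvk, phosphomevalonate kinase).

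In BCR-negative cells the median was 0.16, and 27 members had positive values (54.2% of genes). Sqle was called higher (background 1.91%) and Insig1 lower (1.76%). A total of 13 members were higher in all 3 lymphomas (21.2% of genes), and 13 had an unadjusted p below 0.05 in the positive direction (11.4%). This comparison and the untreated BCR comparison share the untreated BCR-negative arrays, so an excursion on those arrays enters both with opposite sign.

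Sqle, the squalene epoxidase, read 9.56, 9.75 and 9.26 in untreated and 10.00, 10.23 and 9.36 in treated BCR-negative cells. It rose by 0.34 ± 0.0791, or 1.26-fold (limma adjusted p = 0.0495), with 0.44 and 0.48 in lymphomas 2564 and 2646 and 0.10 in 2676.

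Insig1 went from 10.25, 10.44 and 10.51 to 10.01, 9.98 and 10.16. The groups did not overlap, and Insig1 fell by 0.35 ± 0.0754 (limma adjusted p = 0.0389). In BCR-positive cells, where it read 10.10, 10.14 and 10.17 untreated and 10.14, 9.90 and 10.19 treated, its difference was -0.06 ± 0.0754.

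In this response the medians of lymphoma 2676, again from 1 pair of arrays, were lower than those of the other tumours. The median over the 17 sterol enzymes was 0.31 in 2564, 0.30 in 2646 and -0.09 in 2676, and that over the fatty acid enzymes was 0.30, 0.26 and 0.03. Hmgcs1, Mvd, Fdps, Fdft1 and Tm7sf2 each had positive values in 2564 and 2646 and values between -0.25 and -0.35 in 2676. Idi1 was positive in all 3 tumours (0.36, 0.33 and 0.12), for a mean of 0.27 ± 0.0758 (adjusted p = 0.0798). Without lymphoma 2564 or without 2646 no member was called in this comparison, and without 2676 there was 1 call, in the positive direction. Leaving out single arrays gave 0 to 5 members called higher and 0 to 1 called lower. Over all genes, leaving out a lymphoma or an array gave 0 to 471 called higher and 0 to 369 called lower. With all arrays these were 360 and 332.

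**Figure D3:**
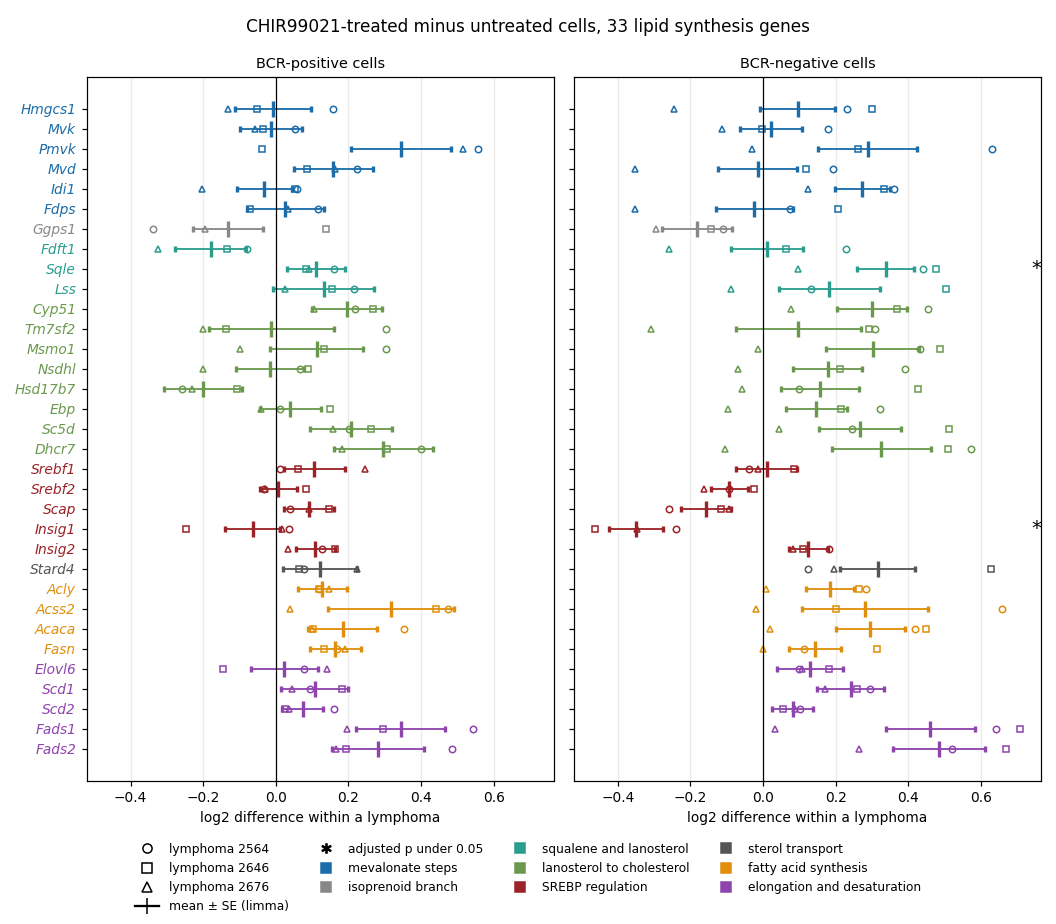
Difference in log2 expression between CHIR99021-treated and untreated cells (horizontal axis) for the 33 members, in BCR-positive (left) and BCR-negative (right) cells. Open symbols are the 3 lymphomas, ticks with bars the mean ± SE from limma; asterisks mark Sqle and Insig1 in BCR-negative cells, and triangles (2676) lie left of the other tumours for most sterol enzymes there.

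Averaged over both populations, 3 members were called higher with CHIR99021 (background 3.91%) and Insig1 lower (3.47%). The clearest changes were in polyunsaturated fatty acid desaturation, where both Fads1 and Fads2 rose. All 9 fatty acid enzymes were higher in all 3 lymphomas, among 16 members in all that were (22.3% of genes), and 5 of the 17 sterol enzymes were. Positive values were found for 27 members (53.4% of genes), and 16 had an unadjusted p below 0.05 in that direction (11.7%).

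Fads1, the delta-5 desaturase, read 9.09, 8.86 and 8.31 in untreated BCR-positive cells and 9.63, 9.16 and 8.50 with CHIR99021. In BCR-negative cells it went from 8.98, 8.41 and 8.31 to 9.62, 9.12 and 8.34. It rose by 0.40 ± 0.0866, or 1.32-fold (limma adjusted p = 0.0252), strongly in 2564 and 2646 (0.59 and 0.50) and by 0.11 in 2676.

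Fads2 read 9.24, 9.99 and 9.07 untreated and 9.73, 10.18 and 9.24 treated in BCR-positive cells, and 9.05, 9.15 and 8.88 untreated and 9.57, 9.82 and 9.14 treated in BCR-negative cells. It rose by 0.38 ± 0.0896 (adjusted p = 0.0341), with the treated array above the untreated one in all 6 pairs.

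Sqle rose by 0.22 ± 0.0559 (adjusted p = 0.0417), and Insig1 fell by 0.21 ± 0.0533 (adjusted p = 0.0464). Cyp51 (0.25 ± 0.0677) and Acaca (0.24 ± 0.0672) had adjusted p of 0.0571 and 0.0618 and positive values in every tumour. Acaca read 9.44, 9.23 and 9.42 untreated and 9.79, 9.33 and 9.52 treated in BCR-positive cells, and 9.28, 8.87 and 9.12 against 9.70, 9.32 and 9.14 in BCR-negative cells. Pmvk, at 7.28, 6.90 and 5.97 against 7.84, 6.86 and 6.48 in BCR-positive cells and 7.06, 6.35 and 5.93 against 7.69, 6.61 and 5.90 in BCR-negative cells, differed by 0.32 ± 0.097 (adjusted p = 0.0847). Its spread between tumours, 1.40 between the highest and the lowest lymphoma mean, exceeded its response.

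Some steps had values near 0. Mvk and Fdps, which makes farnesyl pyrophosphate, had averaged differences of 0.00 with 95% intervals of -0.13 to 0.14 and -0.17 to 0.17, and Fdft1 had -0.08 ± 0.0695. Insig2 differed by 0.12 ± 0.0378 (adjusted p = 0.101) and Ggps1 by -0.16 ± 0.0681. For Scap the probe set used gave -0.03 and a dimmer one (mean level 5.04) gave 0.13, so its direction was not settled. Without lymphoma 2564 no member was called higher in this comparison, without 2646 none, and without 2676 there were 2. Leaving out single arrays gave 0 to 8 members called higher. Over all genes, leaving out a lymphoma or an array gave 14 to 934 called higher, against 736 with all arrays. With array medians subtracted, 12 members were called higher, among 7.8% of all genes higher and 2.33% lower. The median of all genes was then 0.06, and Insig1 was not called.

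**Figure D4:**
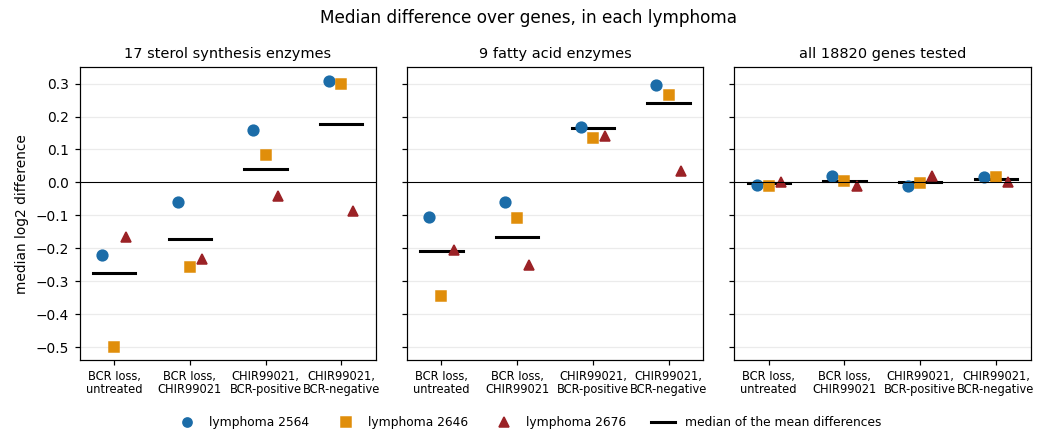
Median log2 difference (vertical axis) over the 17 sterol enzymes, the 9 fatty acid enzymes and all 18820 genes tested, in each of the 4 simple comparisons. Symbols are the 3 lymphomas and black bars the median of the mean differences; the sterol medians of lymphoma 2676 are -0.04 and -0.09 under CHIR99021, while those of 2564 and 2646 are positive.

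Of 39 other genes of the pathway listed, 27 were measured, and they did not share one direction. In untreated cultures 2 were called higher after BCR loss (background 1.91% of all genes) and none lower (2.3%). These were Mylip, whose product marks the LDL receptor for degradation (0.76 ± 0.156, limma adjusted p = 0.033), and Gpam, the acyltransferase that starts triglyceride synthesis (0.86 ± 0.122, adjusted p = 0.0134). Averaged over both cultures both were again called higher (background 3.17%), and 3 genes were lower (3.46%). These 3 were Tmem97, a sterol-binding protein of the endoplasmic reticulum (-0.26), Mid1ip1, an activator of acetyl-CoA carboxylase (-0.44), and Dgat2, which completes triglycerides (-0.25). At an unadjusted p below 0.05 (limma), 3 of the 27 were higher and 9 lower after BCR loss untreated (8.36% and 12.2% of genes). In the average, 4 were higher and 9 lower (10.1% and 12.4%). With CHIR99021 in BCR-negative cells, 3 were called higher (background 1.91%). They were Nus1, a subunit of the dolichol-forming enzyme (0.33), and the very long chain fatty acid enzymes Elovl1 (0.33) and Hsd17b12 (0.39). Gpam was called lower by limma (-0.69 ± 0.122, adjusted p = 0.021, background 1.76%). Averaged over both populations, Nus1, Elovl1, Hsd17b12 and Dgat2 were higher (0.24, 0.29, 0.22 and 0.28, background 3.91%). Mylip, Gpam and Abca1, the cholesterol exporter, were lower (-0.50, -0.49 and -0.37, background 3.47%). Limma called none of the 27 in CHIR99021 cultures for BCR loss (background 0.0106% higher and 0.00531% lower). None was called in BCR-positive cells for CHIR99021 (0.00531% and 0.0691%), or for the interaction (0% and 0%). At an unadjusted p below 0.05, those comparisons held 2 higher and 3 lower, 3 higher and 3 lower, and 1 higher and 2 lower of them. The shares of all genes at that p were 4.87% and 3.78%, 4.69% and 5.36%, and 3.35% and 1.91%.

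The design also allowed the difference between the responses to be tested. No member was called for the interaction of BCR loss and CHIR99021 (limma, smallest adjusted p = 0.928), and none of the 18820 genes was (background 0%). At an unadjusted p below 0.05, Idi1 (0.30 ± 0.107) and Hsd17b7 (0.36 ± 0.152) were positive (3.35% of genes), and Scap (-0.25 ± 0.0979) and Insig1 (-0.29 ± 0.107) negative (1.91%). Each of these 4 had the same sign in all 3 lymphomas, which their choice by this p favours. Over all 18820 genes, 3079 were positive and 2254 negative in all 3. The 95% intervals were 0.06 to 0.54 for Idi1 and -0.52 to -0.05 for Insig1, so at n = 3 the size of such a difference remained poorly bounded.

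Set side by side without a test, BCR-negative cells with CHIR99021 differed from untreated BCR-positive cells by a median of -0.04 over the members, from -0.29 (Fdft1) to 0.28 (Fads1). Of the 33 members, 18 (54.5%) lay within 0.1 of the untreated BCR-positive level, against 13480 of the 18820 genes (71.6%). Mvk (-0.24), Fdps (-0.25), Fdft1 (-0.29), Hsd17b7 (-0.23), Mvd (-0.21), Lss (-0.20) and Scd1 (-0.19) had the most negative values, whereas Sqle (0.02), Cyp51 (-0.03) and Sc5d, a sterol desaturase (0.00), were near their untreated BCR-positive values. In lymphoma 2676 the values were -0.37 for Mvk, -0.48 for Fdps and -0.59 for Lss, and in lymphoma 2564 they were 0.04, 0.01 and 0.13.

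**Figure D5:**
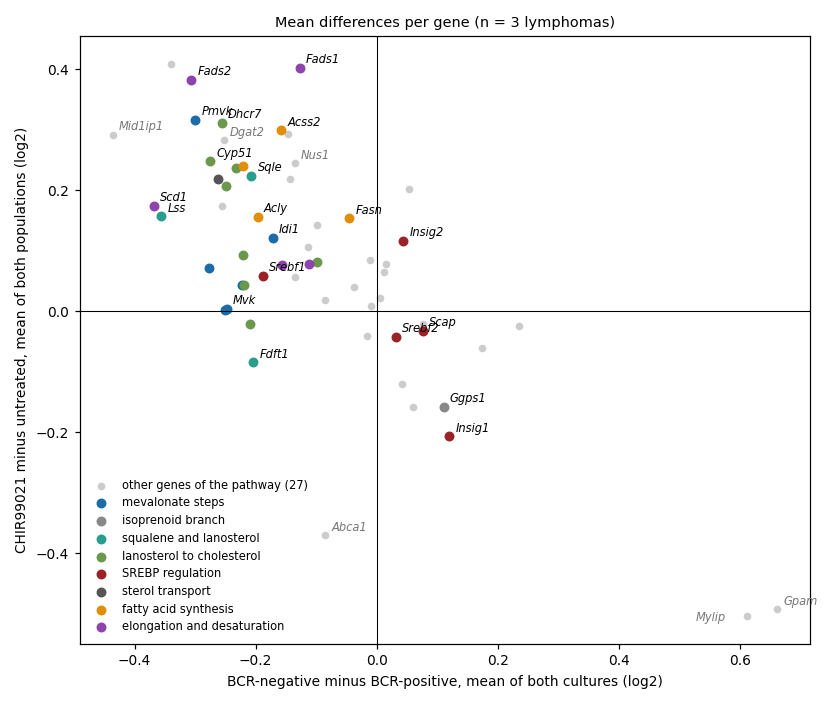
Mean log2 difference for BCR loss (horizontal axis, both cultures averaged) and for CHIR99021 (vertical axis, both populations averaged) per gene, n = 3 lymphomas. Coloured points are the 33 members by role and grey points 27 other genes of the pathway; all arrays enter both axes, and Insig1 (0.12, -0.21) lies opposite to Scd1 (-0.37, 0.17).

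The members also differed in how much of their variance lay between tumours. Mvd had 93.8% of its variance between lymphomas and 4.05% between groups, with means of 7.28, 7.03 and 5.65 in 2564, 2646 and 2676. Insig1 was the opposite case, with 14.3% between lymphomas and 69.3% between groups, the largest group share of the members, followed by Cyp51 with 59.3%. The highest lymphoma mean was in 2646 for 18 members, in 2564 for 12 and in 2676 for 3. One of those 3 was Hsd17b7, at 9.57 in 2676 against 8.52 in 2564.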

How the data were processed

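RNA of 12 samples was hybridised, each to its own array. The values that the authors deposited are log2 expression for 35556 probe sets. Per the submitters' processing notes, RMA was run with the Affymetrix Power Tools. No version is named in those notes, and neither scanner files nor scan batches were analysed here. Of the probe sets, 21218 carry 1 gene symbol in the platform annotation and 1881 several, which were left out. Where several probe sets named one of the resulting 18820 genes, that of highest average signal stood for it, with no filter on dim genes. R 4.3.3 with limma 3.58.1 fitted group and lymphoma, then eBayes, and p-values were adjusted by Benjamini-Hochberg over all genes. The script was tested on simulated data. Residual degrees of freedom were 6, and the number of arrays limits the precision. Errors are SE. Nothing in the labels gives repeat cultures of a lymphoma, so a lymphoma is the replicate.

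The lymphoma enters as a block because the labels give the same tumour in all 4 groups. Deviations from group means correlated at 0.81 to 0.91 in the 18 same-lymphoma pairs of arrays and at -0.62 to -0.25 in the 48 others.

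The members, the 39 other pathway genes (27 measured) and the marker lists were chosen with earlier results of these data known. Array by array values are given for each member called in any comparison and, per role, for the member with the smallest p in each averaged comparison; other members are named with a difference, and other pathway genes where called. Alternatives were the block, dim genes, several probe sets per gene, scaling, cyclic loess, eBayes with trend and robust, the arrays in the fit, and each lymphoma or array left out. Promoters came from RefSeq and were searched in Python 3.11.15, and figures were drawn with matplotlib 3.10.9.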

Additional observations from a re-analysis of the deposited data

Results flagged for a closer look

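Scap, whose product escorts SREBP to the Golgi, responded to CHIR99021 with opposite signs in the BCR-positive and BCR-negative cells of every lymphoma. The differences were 0.04, 0.15 and 0.09 in BCR-positive cells of 2564, 2646 and 2676 (mean 0.09) and -0.26, -0.12 and -0.10 in BCR-negative cells (mean -0.16). The interaction was -0.25 ± 0.0979, with a limma adjusted p of 0.928, so the difference did not pass the test over all genes. Such opposite signs occurred in 423 of the 18820 genes (2.25%), and both contrasts are taken from the same tumours. A dimmer second probe set of Scap gave 0.22 and 0.04 in the same comparisons.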

How the results depend on the processing

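The direction of the members' median held under every alternative run in each comparison except the interaction, where 0.06 became -0.004 without lymphoma 2646, and no called result reversed, whereas the number of members called depended on the processing. The fit without the replicate block called no member in any comparison (0 in place of 2 and 4 lower for BCR loss untreated and averaged, 1 lower and 1 higher for CHIR99021 in BCR-negative cells, and 1 lower and 3 higher for averaged CHIR99021), and so did lymphoma as a random block. Fits on only the 6 arrays compared also gave 0 for BCR loss untreated and for CHIR99021 in BCR-negative cells. With array medians subtracted, 8 and 20 members were lower after BCR loss (untreated, averaged), 4 were higher with CHIR99021 in BCR-negative cells, and 12 were higher and 0 lower in the average, and the median in BCR-positive cells was 0.15; calls over all genes rose too, from 432 and 651 to 1013 and 1594 lower for BCR loss and from 360 and 736 to 836 and 1468 higher for CHIR99021. Cyclic loess gave 1 and 1 lower for BCR loss and 0 higher for CHIR99021 in BCR-negative cells. With trend and robust, eBayes gave 5 higher for averaged CHIR99021. The all-gene counts of these fits are not given singly, so these counts do not set the members apart from other genes. Calls over all genes also varied across the alternatives that left out no lymphoma or single array. For BCR loss they ran from 0 to 1013 lower untreated and from 2 to 1594 lower averaged. For CHIR99021 in BCR-negative cells they ran from 2 to 382 lower and from 1 to 836 higher. For averaged CHIR99021 they ran from 19 to 741 lower and from 3 to 1468 higher. The causes of these shifts were not tested.

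Leaving out a lymphoma or an array gave 0 to 6 members lower and 0 to 1 higher for BCR loss untreated, and 0 to 8 lower averaged. For CHIR99021 it gave 0 to 1 lower and 0 to 5 higher in BCR-negative cells, and 0 to 1 lower and 0 to 8 higher averaged. Over all genes, the same fits gave 0 to 635 lower for BCR loss untreated and 0 to 1018 lower averaged. For CHIR99021 they gave 0 to 471 higher in BCR-negative cells and 14 to 934 higher averaged. The members' median ranged from -0.33 to -0.16 for BCR loss untreated and from 0.054 to 0.13 for CHIR99021 in BCR-positive cells. The adjusted p of Scd1 for averaged BCR loss ran from 0.00668 to 0.699 over 22 alternatives and stayed on its side of the threshold in 15. The other averaged BCR-loss calls stayed in fewer of the 22, Mvk in 7, Cyp51 in 6 and Acly in 5. In untreated cultures Idi1 stayed called in 6 of 23 alternatives and Scd1 in 11. For CHIR99021 in BCR-negative cells, Sqle stayed called in 6 of 23 and Insig1 in 9. For averaged CHIR99021, Fads1 stayed called in 11 of 22, Fads2 in 10, Sqle in 6 and Insig1 in 6. The number of lymphomas, 3, limits the precision, and all 33 members lay above the dim level of 4.12.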
